A study of Mus musculus with 6 samples.

Results

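Genes for axon guidance ligands and their receptors were followed in mouse hippocampus of the inbred strains C57BL/6 and DBA/2. The members were taken by gene symbol alone: semaphorins of classes 3 to 7, plexins, neuropilins, ephrins, Eph receptors, Slits, Robos, netrins, netrin-Gs, and the netrin receptors Unc5 and Dcc. The rule took 70 of the 51912 genes in the count table, 36 ligands and 34 receptors, and all 70 passed the filter on low counts. Each strain had 3 libraries of total RNA from frozen hippocampus, and the groups differ by strain only as far as the labels say, with no sex, age, substrain or treatment given. Whether each library came from its own animal is not said, and a p-value here therefore measures spread between libraries that may in part be technical.

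Guidance ligands are membrane-bound or secreted proteins that steer growing axons by attraction or repulsion. Ephrins bind Eph receptor tyrosine kinases where cells touch, and both partners can signal. Semaphorins act through plexins, most secreted ones with a neuropilin as co-receptor, Slits repel through Robos, and netrins attract through Dcc and repel through Unc5 receptors. In the adult hippocampus many of these genes stay active, with known roles in mossy fibre layout, dendritic spines and synapses.

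Among the 70 genes, 11 were higher and 7 lower in DBA/2 by edgeR (quasi-likelihood test, p-values adjusted by Benjamini-Hochberg over 17517 genes), at an adjusted p under 0.05 (the calls used throughout). The rises were all small, from 0.17 for the netrin receptor Unc5a to 0.31 for ephrin-B2 and plexin-A3 on the log2 scale, DBA/2 over C57BL/6. The falls reached further, to -1.56 for the receptor Epha8, -0.65 for semaphorin Sema6a and -0.52 for ephrin-B3. The 18 calls are 25.7% of the members, beside 22.8% of all genes tested. Higher calls made up 15.7% of members and 9.09% of all genes, and lower calls 10% of members and 13.7% of all genes. Of the 11909 tested genes between the 5th and 95th percentile of the members' mean levels, 24.1% were called, 9.22% higher and 14.9% lower. The share of members called is near the background and is not a result about these families.

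Changes in these genes were mostly modest. The median log2 fold change was 0.02 over the members and 0.00 over all genes tested, and the median absolute value was 0.12 against 0.15. An absolute log2 fold change of at least 0.5 was reached by 5 members (7.14%) and by 16.3% of all genes, and one of at least 1 only by Epha8 (1.43% of members, 5.66% of all genes). Over the 11909 genes of like level the median absolute value was 0.12, the same as in the members. Of those genes 9.72% reached 0.5 and 2.87% reached 1. Libraries of C57BL/6 and DBA/2 separated without overlap in 19 members (27.1%), 11 higher and 8 lower in DBA/2, beside 36.8% of all genes tested and 37.8% of those of like level. Ligands counted 4 higher and 3 lower of 36 with a median of 0.03, and receptors 7 higher and 4 lower of 34 with a median of 0.01.

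**Figure D1:**
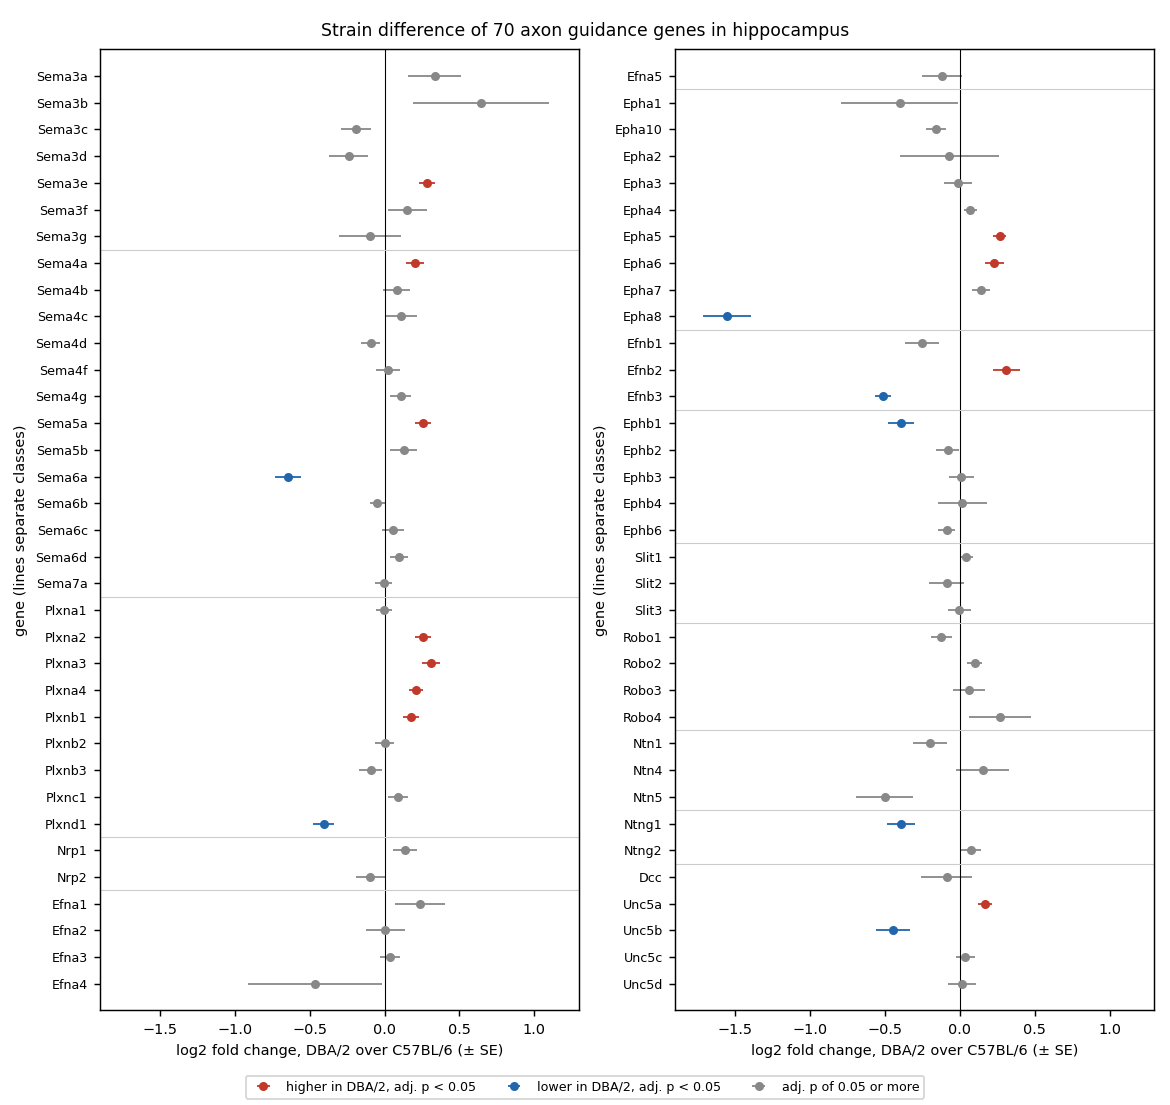
Log2 fold change (DBA/2 over C57BL/6) of each of the 70 members by class, with bars of 1 standard error and colours for genes called higher, called lower or not called. Most points lie near 0, and Epha8 stands farthest out at -1.56.

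Libraries held 13839366 to 20185683 counts, so that a count of 0 allows up to 3 counts, or 0.15 to 0.219 CPM (counts relative to the TMM-scaled library size), for counting error only. Xist, the X-inactivation RNA, had 3214, 1 and 6995 counts in C57BL/6 libraries 1, 2 and 3 and 12, 10 and 2 in the DBA/2 libraries. High Xist was thus found in C57BL/6 libraries only. The labels give no sex, so a part of sex in the strain differences was not tested and cannot be fully told apart from strain. Leaving out C57BL/6 libraries 1 and 3 left 1 library in that strain, assumed to vary like the others. The members' median log2 fold change was then 0.053, beside 0.00875 over all genes tested. Fewer of all genes tested were called in that fit too, so a call lost there is not particular to its gene. Markers of cell types and neighbouring tissue also differed. Summed CPM of 16 thalamus and habenula markers was 475 to 673 in C57BL/6 libraries and 256 to 343 in DBA/2 libraries, with 8 of 16 called lower. Over 14 myelin markers it ranged from 7212 to 8999 and from 4856 to 6550 (4 called lower), over 8 oligodendrocyte precursor markers from 441 to 486 and from 377 to 405 (5 lower), and over 12 microglia markers from 422 to 454 and from 315 to 342 (8 lower). Of 12 astrocyte markers 7 were lower and 2 higher, of 10 neocortex and striatum markers 4 were higher, and of 10 vessel markers 2 were higher. The astrocyte sums overlapped, at 4832 to 5072 CPM in C57BL/6 and 4998 to 5603 CPM in DBA/2. So did the neocortex and striatum sums, at 239.2 to 245.4 CPM and 245.2 to 297.7 CPM. Of 8 choroid plexus and 7 fibroblast markers none was called by edgeR, DESeq2 or limma-voom, with 0 and 2 at an unadjusted edgeR p under 0.05. DESeq2 called more of the thalamus (13) and myelin (9) markers. The hippocampal lists were present in both strains. CA2 and CA3 markers summed to 357 to 414 CPM in C57BL/6 and 316 to 335 CPM in DBA/2, without overlap (2 of 8 higher, 1 lower). That lower sum rests on Pcp4, which fell from 143 ± 28.2 to 65.0 ± 3.32 CPM (SD, n = 3 each). Rgs14 and Map3k15 were the genes called higher, and the median log2 fold change of the list was 0.08. CA1 markers (551 to 622 and 545 to 651 CPM, 1 of 6 called), dentate granule markers (665 to 702 and 691 to 773 CPM, 4 of 8 called) and interneuron markers (951 to 1004 and 918 to 1027 CPM, 2 of 10 called) overlapped in their sums. No listed marker was at 0 in all libraries. In whole tissue, fewer cells of a type, less RNA per cell and a differing amount of neighbouring tissue cannot be told apart.

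Levels between genes were compared as FPKM, reads scaled by exonic length and library size. Over the 6 libraries the members ran from 0.217 FPKM for Epha2 to 46.7 FPKM for Efnb3, with a median of 6.37. At 10 FPKM or more stood 19 members, 45 lay from 1 to under 10, and 6 were under 1: Epha2, Epha1, Efna4, Sema3a, Sema3g and Robo4. The highest were Efnb3, Slit1 (45.9 FPKM), Epha4 (45.0), Unc5a (35.4), Sema7a (35.2) and Sema6b (31.5). Of the 69 neighbouring pairs in this order, 65 overlapped in their 6-library ranges. The 4 that did not were the steps after Epha4, Sema7a, Sema6b and Efna3. No member moved by more than 10 ranks between the strains. Genes called higher had a median level of 11.4 FPKM, genes called lower 5.12 FPKM and uncalled genes 3.83 FPKM. Their median exonic lengths were 9285, 7002 and 6001 bases. A small change passes more readily in a gene with more counts, so this order is a description only.

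**Figure D2:**
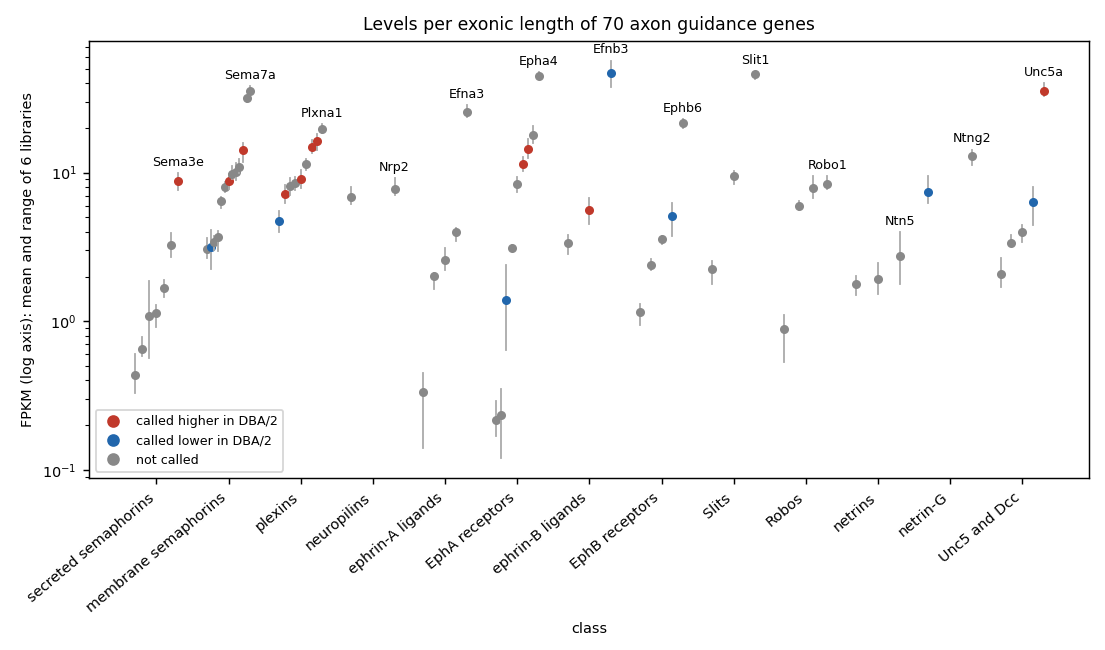
FPKM of each member on a log axis, grouped by class, with points for the mean and lines for the range of the 6 libraries, coloured by call. Within most classes 1 member stands well above the rest, such as Efnb3 at 46.7 FPKM among the ephrin-B ligands and Slit1 at 45.9 FPKM among the Slits.

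Among the ligands, the ephrin-B class differed most in summed level, from 63.1 ± 3.60 FPKM in C57BL/6 to 48.2 ± 1.79 FPKM in DBA/2 (SD, n = 3 each). Efnb3, a transmembrane ephrin that also signals into its own cell, made up most of it. Its level was 183, 163 and 181 CPM in the C57BL/6 libraries and 121, 119.5 and 128 CPM in the DBA/2 libraries. Every C57BL/6 library was above every DBA/2 library, and Efnb3 fell by 0.52 on the log2 scale (SE 0.05, edgeR adjusted p = 6.22e-08, 1.43-fold). It took 86.4% of ephrin-B FPKM in C57BL/6 and 80.6% in DBA/2. Efnb2, a relative also known in arteries, was at 31.1, 32.9 and 38.6 CPM in C57BL/6 and at 37.5, 45.9 and 44.4 CPM in DBA/2. Its libraries overlapped, since C57BL/6 library 3 was above DBA/2 library 1, and its log2 fold change was 0.31 (SE 0.09, edgeR adjusted p = 0.0159). That call was lost without C57BL/6 library 1 (adjusted p = 0.0812) or 2 (0.062), without DBA/2 library 2 (0.0797) or 3 (0.0666), and in limma on log2 FPKM (0.0576 and 0.0577 for pseudocounts of 1 and 0.1). Vessel markers summed to 157 to 214 CPM in C57BL/6 and 194 to 241 CPM in DBA/2, and their part in the Efnb2 difference was not tested. Efnb1, on the X chromosome, did not pass (log2 fold change -0.25, edgeR adjusted p = 0.117), although its libraries did not overlap.

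None of the 5 ephrin-A genes, which encode lipid-anchored ligands of EphA receptors, was called by edgeR, the DESeq2 Wald test or limma-voom, and 0 had an unadjusted edgeR p under 0.05. Efna3 led the class with 25.0 ± 1.29 FPKM in C57BL/6 and 26.0 ± 2.14 FPKM in DBA/2 (SD, n = 3 each), about 74.0% and 74.1% of its sum. Efna2 followed, with a log2 fold change of 0.00 beside 0.04 for Efna3. The class ran from -0.47 to 0.24.

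Of the 9 EphA receptors, 2 were higher and 1 lower, and the class median was -0.01. Epha8, an EphA receptor tyrosine kinase (ENSMUSG00000028661), had the largest change of all members. It was at 11.5, 9.18 and 9.03 CPM in the C57BL/6 libraries and at 3.82, 3.003 and 3.24 CPM in the DBA/2 libraries. The strains were far apart against the spread within each, with a log2 fold change of -1.56 (SE 0.16, edgeR adjusted p = 6.8e-08), or a level 2.94-fold lower in DBA/2. On the log2(FPKM + 1) scale, which understates changes of low genes, the value was -0.84. Epha8 held 2.12% of EphA FPKM in C57BL/6 and 0.677% in DBA/2, so its fall hardly touched the class sum, 98.1 ± 2.00 and 106 ± 1.54 FPKM (SD, n = 3 each).

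The gene lies at chr4:136929419-136956816 on the minus strand (GRCm38, GENCODE M21). Its promoter window, 250 bases before to 50 after the start in RefSeq (GRCm38.p6, chr4:136956767-136957066, minus strand), is shown because this member changed most. It is C57BL/6J reference sequence, and capitals mark GC boxes (GGGCGG on either strand, overlaps included).
Epha8: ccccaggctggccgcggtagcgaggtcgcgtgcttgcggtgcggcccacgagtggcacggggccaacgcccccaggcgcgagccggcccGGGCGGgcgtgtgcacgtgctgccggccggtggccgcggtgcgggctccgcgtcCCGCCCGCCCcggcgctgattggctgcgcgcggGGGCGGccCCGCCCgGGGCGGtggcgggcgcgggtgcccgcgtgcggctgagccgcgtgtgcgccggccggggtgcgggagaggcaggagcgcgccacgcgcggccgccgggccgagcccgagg
The window holds 6 GC boxes and 56 CpG, and 84.3% of its bases are G or C. Of the 70 members 60 had a window in the RefSeq table, and 43 of these (71.7%) held a GC box, beside 35.7% of 32851 windows of the same length. The median number of CpG was 22.5 in the members' windows and 7 over all. The GC box was in 10 of 10 matched windows of genes called higher and in 4 of 5 of genes called lower, so it did not separate the directions. TATAAA was in 3.3% of the members' windows and 13.6% of all, and CACGTG in 5% and 7.2%, both strands searched. The 32851 windows outnumber the 17517 genes tested and were not matched to the members in level or gene type. All members are protein-coding genes that passed the filter on low counts. The contrasts in GC box, CpG, TATAAA and CACGTG are therefore between unlike sets and are not a result about these families.

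Genes around Epha8 were read after its value was seen. Of 12 tested genes within 500000 bases, Epha8 included, 7 were lower and none higher, beside 13.7% lower and 9.09% higher over all genes tested. The window was centred on a gene called lower, so this count is a description only. The 3 chains of complement C1q, made mostly by microglia in brain, lie 30615 to 43231 bases away. C1qb fell from 37.0 ± 1.52 to 14.4 ± 0.702 CPM, C1qc from 27.9 ± 1.78 to 11.3 ± 1.02 CPM and C1qa from 36.5 ± 0.782 to 24.9 ± 2.10 CPM (SD, n = 3 each). Wnt4, a secreted Wnt ligand, fell from 13.6 ± 0.561 to 8.38 ± 0.498 CPM, and Cdc42, a small GTPase used by guidance receptors, from 266 ± 5.83 to 216 ± 7.02 CPM. The small RNA gene Gm25772, 1 of the 7, lies within Cdc42 and had 1.44 CPM in C57BL/6 and no count in DBA/2. Zbtb40, between Epha8 and Wnt4, was not called (log2 fold change -0.07). The receptor gene Ephb2, beyond the C1q genes, was not called either, with 31.3 ± 2.18 and 29.6 ± 1.84 CPM in C57BL/6 and DBA/2. The microglia list holds the 3 C1q genes, and any tie between it and Epha8 was not tested.

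**Figure D3:**
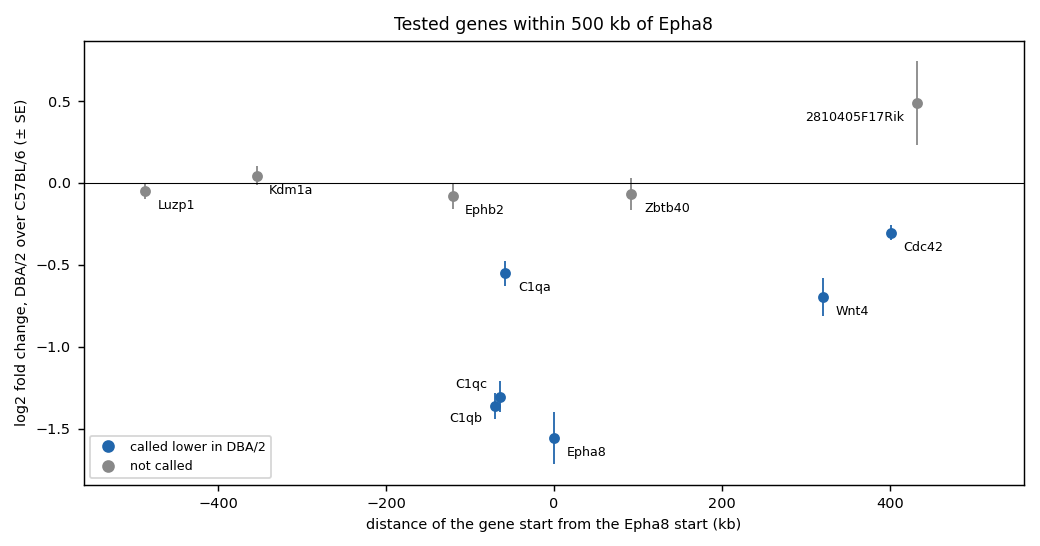
Log2 fold change (with bars of 1 standard error) of tested genes against the distance of their start from the Epha8 start in kilobases, without the small RNA gene Gm25772, which had no count in DBA/2. Epha8, the 3 C1q genes, Wnt4 and Cdc42 are called lower, while Ephb2 and Zbtb40 on either side of Epha8 are near 0.

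Epha5 and Epha6, EphA receptors of neurons, moved the other way. Epha5 was at 173, 174 and 174 CPM in C57BL/6 and at 213, 207 and 206 CPM in DBA/2, a tight separation (log2 fold change 0.27, SE 0.04, edgeR adjusted p = 8.02e-05). Epha6 was at 69.2, 67.4 and 74.2 CPM against 74.6, 88.5 and 84.6 CPM, where DBA/2 library 1 was barely above the highest C57BL/6 library (0.23, SE 0.06, edgeR adjusted p = 0.0107). The Epha6 call was lost without C57BL/6 library 1 (adjusted p = 0.0511) or 2 (0.0501) or DBA/2 library 2 (0.0625). Epha4, which binds both ephrin classes, took 44.3% and 43.9% of EphA FPKM and was not called (43.5 ± 0.720 and 46.4 ± 1.67 FPKM (SD, n = 3 each), log2 fold change 0.07, edgeR adjusted p = 0.286). Epha7, next in level, was at 0.14 with an edgeR adjusted p of 0.107. It was called without C57BL/6 library 2 (0.0451), without DBA/2 library 2 (0.00838) and with no filter on low counts (0.0405). The other uncalled EphA receptors ran from -0.40 for Epha1, one of the lowest members at 0.257 ± 0.114 FPKM in C57BL/6, to -0.01 for Epha3, a receptor of ephrin-A5 (SD, n = 3). Epha10, which has an inactive kinase domain, stood at -0.16 with an edgeR adjusted p of 0.0807.

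In the EphB class, receptors of ephrin-B ligands, 1 of 5 was called. Ephb1 was at 44.5, 40.4 and 37.8 CPM in C57BL/6 and at 33.0, 33.5 and 26.3 CPM in DBA/2. All DBA/2 libraries were lower, by -0.40 on the log2 scale (SE 0.09, edgeR adjusted p = 0.0022). The other EphB genes, Ephb2, Ephb3 and Ephb4, stood at -0.08, 0.01 and 0.02. Ephb6, whose kinase domain is inactive, held 63.1% and 64.5% of EphB FPKM and did not pass (log2 fold change -0.09, edgeR adjusted p = 0.31). The fall of the ligand Efnb3 stood beside a fall of Ephb1, while Efnb2 was higher and Epha4 was not called.

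**Figure D4:**
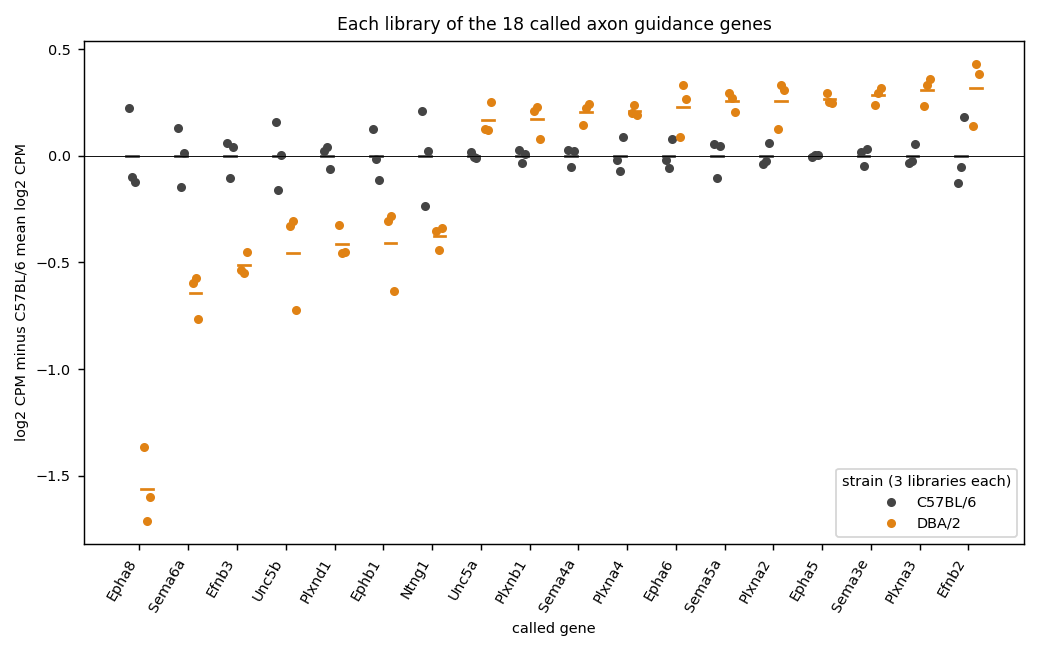
Log2 CPM of the 18 called members minus the C57BL/6 mean, with a point per library and a dash for each strain mean. The points of the strains overlap only in Efnb2, and Epha8 shows the widest gap.

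Secreted semaphorins had 1 call among 7. Sema3e, a secreted ligand that binds plexin-D1 without a neuropilin, was at 74.7, 71.4 and 75.6 CPM in C57BL/6 and at 87.0, 90.5 and 92.1 CPM in DBA/2. All DBA/2 libraries were higher (log2 fold change 0.28, SE 0.05, edgeR adjusted p = 0.000387). Its receptor gene Plxnd1 went the other way, with 40.3, 40.8 and 38.1 CPM in C57BL/6 and 31.7, 29.0 and 29.0 CPM in DBA/2. That fall was -0.41 (SE 0.07, edgeR adjusted p = 0.000104), again with no overlap. Sema3c, second in level of the class, was not called (-0.19, edgeR adjusted p = 0.188). Its value was -0.08 without C57BL/6 library 3 (adjusted p = 0.66), -0.11 without DBA/2 library 3 (0.517) and -0.01 without both C57BL/6 libraries with Xist (0.988). Sema3e made up 49.2 ± 1.13% of the class FPKM in C57BL/6 and 54.0 ± 3.69% in DBA/2, and Sema3c 21.4 ± 2.09% and 16.9 ± 1.28% (SD, n = 3 each). Sema3a, the classical collapsing ligand of neuropilin-1, was low in both strains, at 0.383 ± 0.0153 and 0.487 ± 0.140 FPKM (SD, n = 3 each), and was not called (0.33, edgeR adjusted p = 0.2). Sema3d, Sema3f and Sema3g, further neuropilin ligands, stood at -0.24, 0.15 and -0.10.

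The promoter windows of this ligand and receptor are shown because the pair moved in opposite directions. Both come from RefSeq (GRCm38.p6), at chr5:14025026-14025325 on the plus strand for Sema3e and chr6:115994956-115995255 on the minus strand for Plxnd1, with GC boxes in capitals.
Sema3e: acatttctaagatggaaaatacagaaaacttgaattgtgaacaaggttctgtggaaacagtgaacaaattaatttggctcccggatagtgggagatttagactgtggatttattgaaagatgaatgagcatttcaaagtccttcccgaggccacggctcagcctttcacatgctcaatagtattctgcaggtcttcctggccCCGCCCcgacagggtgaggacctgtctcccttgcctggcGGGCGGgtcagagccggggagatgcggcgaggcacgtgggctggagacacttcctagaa
Plxnd1: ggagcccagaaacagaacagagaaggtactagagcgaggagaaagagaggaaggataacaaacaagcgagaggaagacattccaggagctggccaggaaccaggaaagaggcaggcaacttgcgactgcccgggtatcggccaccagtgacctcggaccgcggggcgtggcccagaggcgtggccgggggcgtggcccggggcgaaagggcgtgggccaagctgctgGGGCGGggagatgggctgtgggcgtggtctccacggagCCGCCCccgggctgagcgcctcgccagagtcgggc
Each window holds 2 GC boxes. The Sema3e window has 11 CpG and 50.7% G or C, and the Plxnd1 window has 23 CpG and 67.0% G or C.

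Sema3b, a low secreted semaphorin, had the largest change among members not called. It was at 6.02, 3.50 and 2.74 CPM in C57BL/6 and at 8.92, 6.36 and 3.53 CPM in DBA/2. The libraries overlapped, and the log2 fold change of 0.65 had a standard error of 0.45 (edgeR adjusted p = 0.409). With the replicate block the value was 0.605 with an adjusted p of 0.0128. Single libraries moved it widely, to 1.05 without C57BL/6 library 1 (adjusted p = 0.0923), 0.40 without C57BL/6 library 3 (0.659) and 0.31 without DBA/2 library 1 (0.663), and it was 0.32 in limma on log2(FPKM + 1). Choroid plexus markers summed to 2307, 1395 and 1120 CPM in C57BL/6 and to 3691, 2688 and 1709 CPM in DBA/2, so Sema3b took the same order as these markers over all libraries. Fibroblast and meninges markers summed to 156.9, 114.9 and 121 CPM in C57BL/6 and to 189, 187.9 and 156.7 CPM in DBA/2. They took that order except for C57BL/6 libraries 2 and 3, so the match is not particular to choroid plexus. The part of either list in the Sema3b values was not tested.

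Of 13 membrane semaphorins, 2 were higher and 1 lower. Sema6a, a transmembrane semaphorin that binds plexin-A2 and plexin-A4 and helps lay out mossy fibres, was at 36.8, 30.4 and 34.0 CPM in C57BL/6 and at 22.3, 22.6 and 19.8 CPM in DBA/2. It fell by 0.65 on the log2 scale (SE 0.08, edgeR adjusted p = 2.59e-06), and no libraries overlapped. Sema5a, a semaphorin with thrombospondin repeats, was at 145, 129.5 and 144 CPM against 171, 168 and 160.2 CPM (0.25, SE 0.05, edgeR adjusted p = 0.000665). Sema4a, a class 4 transmembrane ligand, was at 45.1, 42.7 and 44.9 CPM against 48.8, 51.7 and 52.4 CPM. That rise of 0.20 (SE 0.06, edgeR adjusted p = 0.0192) was lost without C57BL/6 library 2 (adjusted p = 0.0829), DBA/2 library 3 (0.0618) or both C57BL/6 libraries with Xist (0.122). Sema7a, a lipid-anchored semaphorin that binds plexin-C1, and Sema6b were the most abundant, at 34.97 ± 1.63 and 35.4 ± 2.37 FPKM and at 31.8 ± 0.854 and 31.3 ± 1.33 FPKM in C57BL/6 and DBA/2 (SD, n = 3 each). Neither was called (log2 fold changes -0.01 and -0.05). The other 8 uncalled members ran from -0.09 for Sema4d, the ligand of plexin-B1, to 0.13 for Sema5b, with none past the threshold.

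Plexins, the transmembrane receptors of semaphorins, had 5 calls among 9, 4 higher and 1 lower, with a class median of 0.09 and a sum of 96.3 ± 4.10 FPKM in C57BL/6 and 104 ± 2.91 FPKM in DBA/2 (SD, n = 3 each). Plxna2, a receptor of Sema6a, was at 138, 139 and 148 CPM in C57BL/6 and at 154, 178 and 175 CPM in DBA/2 (0.26, SE 0.06, edgeR adjusted p = 0.00122). Plxna4, the other Sema6a receptor, was at 211, 203 and 227 CPM against 245, 252 and 244 CPM (0.21, SE 0.05, edgeR adjusted p = 0.00223). Both receptors were higher in DBA/2 where Sema6a was lower. Plxna3, an X-linked partner of neuropilin-2 in Sema3f signalling, was at 49.6, 49.9 and 52.7 CPM against 59.6, 63.8 and 65.1 CPM (0.31, SE 0.06, edgeR adjusted p = 0.000452). Plxnb1, the receptor of Sema4d, was at 138, 132 and 136 CPM against 156, 158 and 143 CPM (0.18, SE 0.05, edgeR adjusted p = 0.0131). Its call was lost without C57BL/6 library 2 (adjusted p = 0.0562), DBA/2 library 2 (0.0507) or both C57BL/6 libraries with Xist (0.113). Plxna1, the most abundant plexin, was not called (-0.01). Of the other uncalled plexins, Plxnb2 stood at 0.00, Plxnb3 at -0.09 and Plxnc1, the receptor of Sema7a, at 0.09. Plxnd1 dropped from 5.60 ± 0.420% to 3.97 ± 0.272% of plexin FPKM, while Plxna3 went from 6.62 ± 0.201% to 7.73 ± 0.347% (SD, n = 3 each). The neuropilins, co-receptors of secreted semaphorins, were called by none of edgeR, DESeq2 and limma-voom (0 at an unadjusted edgeR p under 0.05), with log2 fold changes of 0.14 for Nrp1 and -0.10 for Nrp2. Nrp1 passed without DBA/2 library 1 (0.24, edgeR adjusted p = 0.00883).

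No Slit or Robo gene was called by edgeR, DESeq2 or limma-voom, and 0 of these 7 had an unadjusted edgeR p under 0.05. Slit1, the leading Slit, was at 258, 275 and 272 CPM in C57BL/6 and at 273, 274 and 282 CPM in DBA/2, a log2 fold change of 0.04 (SE 0.05, edgeR adjusted p = 0.554). It held 79.3% and 80.0% of Slit FPKM. Slit3 stood at -0.00, and the Robo receptors highest in level, Robo1 and Robo3, at -0.12 and 0.06. Robo2 did not overlap between strains (log2 fold change 0.10), and did not pass the test (edgeR adjusted p = 0.181). Slit2, a low Slit with 2.29 ± 0.144 and 2.19 ± 0.374 FPKM (SD, n = 3 each), stood at -0.09. Robo4, a receptor of vessels, was under 1 FPKM and stood at 0.27 with a standard error of 0.21.

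The netrin-G proteins are lipid-anchored relatives of netrins that bind synaptic partners. Ntng1, the ligand of Lrrc4c, was at 79.8, 58.5 and 69.99 CPM in C57BL/6 and at 54.0, 50.6 and 54.5 CPM in DBA/2. It fell by 0.39 (SE 0.09, edgeR adjusted p = 0.00902) without overlap, but the C57BL/6 libraries were widely spread. The call was lost without DBA/2 library 2 (-0.36, adjusted p = 0.0823). Without both C57BL/6 libraries that held Xist the value was -0.14 (adjusted p = 0.468). Thalamus and habenula markers summed to 673, 475 and 544 CPM in C57BL/6 and to 343, 299 and 256 CPM in DBA/2, in the same order as Ntng1 within C57BL/6 but not within DBA/2. Myelin markers took the same order of libraries as the thalamus and habenula markers within each strain. The part of either list in the Ntng1 difference was not tested. Ntng2, which binds Lrrc4, was not called (0.07), so that Ntng1 took 39.9 ± 5.84% of netrin-G FPKM in C57BL/6 and 32.6 ± 0.777% in DBA/2 (SD, n = 3 each). The postsynaptic partners Lrrc4c and Lrrc4 were not called either, with log2 fold changes of -0.12 and 0.11. Next to Ntng1, 94341 bases away, Vav3, a guanine nucleotide exchange factor, fell from 23.0 ± 2.74 to 13.5 ± 2.05 CPM (SD, n = 3 each).

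Among netrin receptors, Unc5b fell and Unc5a rose. Unc5b was at 51.1, 40.9 and 45.8 CPM in C57BL/6 and at 36.4, 37.0 and 27.7 CPM in DBA/2 (-0.44, SE 0.11, edgeR adjusted p = 0.0167). The strains did not overlap, yet the value was -0.45 with an adjusted p of 0.0512 without C57BL/6 library 3, and -0.27 with 0.24 without both C57BL/6 libraries with Xist. Myelin markers summed to 8999, 7212 and 7775 CPM in C57BL/6 and to 6550, 5999 and 4856 CPM in DBA/2. Unc5b and Sema6a followed the order of that sum within C57BL/6 and had their lowest DBA/2 library in common with it. The thalamus and habenula sum took the same order of libraries within each strain, so the match is not particular to myelin. The part of these markers in either difference was not tested. Unc5a, the most abundant netrin receptor, was at 141, 138 and 138 CPM against 152, 151 and 166 CPM (0.17, SE 0.05, edgeR adjusted p = 0.0152). That call was lost without C57BL/6 library 3 (adjusted p = 0.0508), DBA/2 library 3 (0.0992) or both C57BL/6 libraries with Xist (0.209). Dcc, the attractive netrin receptor, was not called (-0.09, edgeR adjusted p = 0.775). Unc5c and Unc5d, the remaining repulsive receptors, stood at 0.04 and 0.02. Unc5a took 66.6 ± 1.55% of the FPKM of these receptors in C57BL/6 and 71.7 ± 2.55% in DBA/2, and Unc5b 14.6 ± 1.33% and 10.3 ± 1.83% (SD, n = 3 each).

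The 3 netrins were low and none was called by edgeR, DESeq2 or limma-voom, while 1 of them, Ntn5, had an unadjusted edgeR p under 0.05. Ntn5 had the highest mean FPKM of the class, with a 6-library range of 1.79 to 3.97 FPKM that overlapped that of Ntn4 (1.53 to 2.47 FPKM). It was at 5.60, 8.89 and 6.88 CPM in C57BL/6 and at 3.93, 4.89 and 6.27 CPM in DBA/2, where the libraries overlapped (-0.50, SE 0.19, edgeR adjusted p = 0.0601). It was called without C57BL/6 library 1 (-0.65, adjusted p = 0.0234), without DBA/2 library 3 (-0.67, 0.0166), without both C57BL/6 libraries with Xist (-0.83, 0.0159), with the replicate block (0.0353) and with no filter on low counts (0.0185). Ntn5 shares 519 exonic bases, 23.4% of its length, with Sec1 on the opposite strand, whose log2 fold change was -0.85. Whether counting used strand is not given in the sources used here, so reads of these genes cannot be told apart. Ntn4, next in level, stood at 0.15, and Ntn1, the main ligand of Dcc, at -0.20. The 6 called members that overlap another gene, Epha6, Ephb1, Plxna4, Plxnb1, Sema4a and Unc5a, share at most 2.68% of their exonic length with it.

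**Figure D5:**
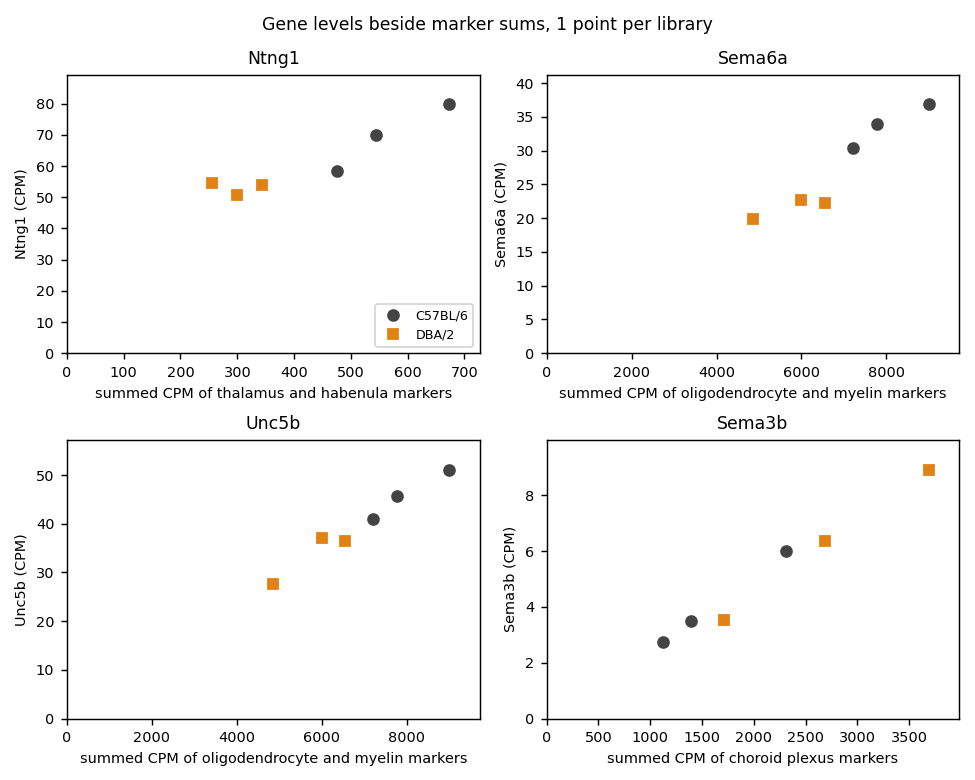
CPM of Ntng1, Sema6a, Unc5b and Sema3b in each library against the summed CPM of a marker list (thalamus and habenula, myelin, myelin, choroid plexus), with points by strain. The panels were chosen after the values were seen, and Sema3b follows the order of its marker sum in all 6 libraries. Fibroblast and meninges sums, not drawn, take that order except for C57BL/6 libraries 2 and 3. The thalamus and myelin sums take the same order of libraries within each strain, so those pairings are not specific.

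Of 85 partner genes of these receptors (co-receptors, other ligands and intracellular effectors), 14 were higher and 12 lower in DBA/2, or 30.6% called (16.5% higher, 14.1% lower), and their median log2 fold change was 0.01. Of all genes tested, 22.8% were called, 9.09% higher and 13.7% lower. Called partners with an absolute log2 fold change of at least 0.5 were few. Draxin, a secreted ligand of Dcc, fell from 1.72 ± 0.245 to 0.615 ± 0.169 CPM (SD, n = 3 each). Ablim1, an actin-binding protein tied to netrin signalling, fell from 110.5 ± 4.12 to 65.6 ± 0.895 CPM, and Vav3 by 0.77 on the log2 scale. Neo1, a relative of Dcc that binds netrins and repulsive guidance molecules, rose from 113 ± 3.70 to 164 ± 9.37 CPM. Cxcl12, a chemokine that guides migrating neurons, rose from 50.1 ± 7.32 to 72.7 ± 5.10 CPM. Without C57BL/6 library 1 or DBA/2 library 3, 8 or 9 partners were called higher.

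Tested neighbours of the members were read for their own calls, the nearest on each side. Members could be neighbours of each other, as Sema3e is of Sema3a, and a gene beside several members was counted for each. Those beside the 11 higher members, 22 in all, held no higher and 3 lower calls. Those beside the 7 lower members, 14 in all, held 2 higher and 2 lower calls, and those beside the 52 uncalled members, 104 in all, held 8 higher and 15 lower calls. Over all genes tested the shares were 9.09% higher and 13.7% lower. Lower calls beside the higher, the lower and the uncalled members were all near the lower share. Higher calls beside the called members rest on few genes.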

How the data were processed

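RNA was measured by sequencing in 6 hippocampus libraries, 3 per strain, grouped by the strain label. Per the labels' protocols, TRIzol RNA was made into NEBNext Ultra RNA libraries for Illumina HiSeq. The submitters' processing notes name Cufflinks 2.2.1, HISAT2 2.0.1, Trimmomatic 0.30 and build GRCm38, a C57BL/6 reference for both strains. The effect of this on DBA/2 reads was not tested. Neither the counting program nor its use of strand is given in the sources used here. Per gene, the authors deposited raw counts and FPKM that equal the count scaled by exonic length and library total within 0.005. The table held 12 columns of other samples, which were not used.

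Counts were tested with edgeR 4.0.16 in R 4.3.3 (quasi-likelihood, robust fit, TMM, filterByExpr), with Benjamini-Hochberg adjustment over 17517 genes and calls at an adjusted p under 0.05. A standard error is the log2 fold change divided by the square root of F. The script was tested on simulated counts. Chi-square per gene between libraries of a strain was 3.36 to 4.22, above sampling noise, so none was taken as a repeat deposit of another. This does not show that they came from separate animals. Alternatives were DESeq2 1.42.0, its size factors, library size alone, other filters, limma 3.58.1 (voom, and log2 FPKM with pseudocounts of 1 and 0.1), the replicate block and libraries left out. Same-numbered libraries had deviations correlated at 0.153, -0.13 and -0.00127, and the other pairs at -0.156 to 0.149. With 3 libraries per strain these values cannot decide whether the numbers pair them, and the labels do not say. Coordinates come from GENCODE M21, which held 99.5% of the IDs, and promoter windows from RefSeq.

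The members, partner and marker lists were chosen with earlier results of these data known. Named were all called members, the 2 of highest FPKM per class, the uncalled member of largest change, and called partners with an absolute log2 fold change of at least 0.5. Efnb1, Robo2, Dcc, Lrrc4c, Lrrc4, the neighbours of Epha8 and other genes were added after their values were seen.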

Additional observations from a re-analysis of the deposited data

How the results depend on the processing

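Of the 18 calls, 11 (Efnb3, Epha5, Epha8, Ephb1, Plxna2, Plxna3, Plxna4, Plxnd1, Sema3e, Sema5a and Sema6a) held in all 16 alternatives, and the other calls, all lost in at least 1, were Efnb2, Epha6, Ntng1, Plxnb1, Sema4a, Unc5a and Unc5b. Members called higher and lower numbered 12 and 8 with the replicate block, and 8 to 12 and 6 to 8 without 1 library. Of all genes tested, 21.8% were called with the replicate block and 17.5% to 20.9% without 1 library, beside 22.8% in the main fit. Partners called lower numbered 6 in limma on FPKM with either pseudocount, and 8 to 13 without 1 library. Partners called higher numbered 8 to 14 without 1 library. Without both C57BL/6 libraries with Xist, 3 partners were higher and 5 lower, and the members' median was 0.053. With the replicate block partners stayed at 14 and 12. The cause was not tested, beyond the fewer libraries.

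Values near 0 changed sign in uncalled genes. Without both Xist libraries the values were -0.0738 for Efna2, 0.014 for Robo1, 0.0606 for Nrp2, -0.0411 for Efna3, 0.0768 for Plxna1, -0.0194 for Ntng2 and 0.0451 for Slit3. With library size alone they were 0.0177 for Plxna1, 0.0183 for Sema7a and 0.0208 for Slit3. In limma on log2(FPKM + 1) they were 0.0201, 0.0151 and 0.0206 for these genes in turn, and on log2(FPKM + 0.1) 0.0211, 0.0155 and 0.0222. Slit3 was at 0.00272 with DESeq2 size factors and 0.00423 in the DESeq2 Wald test. Leaving out 1 library gave -0.083 to 0.0628 for Efna2, -0.000648 to 0.397 for Ntn4, -0.173 to 0.0193 for Nrp2, -0.0291 to 0.0832 for Efna3, -0.0412 to 0.0499 for Plxna1, -0.0656 to 0.181 for Robo3, -0.0595 to 0.0251 for Sema7a and -0.0535 to 0.0883 for Slit3. Depth limits the members with few counts over the 3 libraries of a strain: Efna4 had 32 in C57BL/6 and 22 in DBA/2, Epha1 54 and 38, and Epha2 53 and 48.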
